A study of Rattus norvegicus with 24 samples.

Results

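Apold1, Adamts1, Sox18 and Depp1 were followed across 6 brain regions of rats given the NMDA receptor blocker MK-801. These 4 genes, read by 5 probes, were drawn from 35522 genes or unnamed transcripts on the array. They were taken by probe identity: the single probes of Apold1, Adamts1 and Depp1 and both probes of Sox18. They were selected on their log2 ratios of MK-801 over saline in these same arrays, so the ratios below are given as a description, without a test.

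The animals were male Wistar rats, 9 in all, whose age is given as 9 weeks in the sample labels and 10 weeks in the study design. They received MK-801 intraperitoneally at 0.16 mg/kg (high dose) or 0.08 mg/kg (low dose), or saline (3 rats), and brains were taken 40 min later. RNA of the cortex, hippocampus, amygdala, ventral striatum, hypothalamus and midbrain was hybridised to 24 two-colour arrays. Each array carried MK-801 RNA and saline RNA of 1 region in different dyes, and every region and dose had 2 arrays with the dyes exchanged. Neither the number of rats behind an RNA nor whether the 2 arrays of a pair held different RNA is stated in these sources. A pair was therefore averaged and counted once, so that the 6 regions served as replicates and any spread is that between regions. The saline RNA of a region was the comparison for both doses.

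Apold1 (apolipoprotein L domain containing 1, also called Verge) encodes a membrane-associated protein of vascular endothelial cells and is an immediate early gene there. Adamts1 encodes a secreted metalloprotease that cleaves proteoglycans such as versican and aggrecan and can bind VEGF. Sox18 is a SOXF transcription factor of developing blood and lymphatic endothelium and acts beside Sox7 and Sox17. Depp1 encodes a small protein with a part in autophagy whose gene is induced by progesterone in decidual cells and is a target of FOXO factors. Immediate early genes are those transcribed within minutes of a stimulus without new protein synthesis.

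The probes lie on rn3, the rat build of the array files. Apold1 was read at chr4:172152432-172152491 (plus strand) by probe A_44_P445044. Adamts1 was read at chr11:25434208-25434267 (minus strand) by probe A_44_P257058. The Sox18 probes, A_42_P623913 and A_44_P454913, lie at chr3:170726713-170726772 and chr3:170727039-170727098 (minus strand). Depp1 was read at chr4:153247012-153247071 (plus strand) by probe A_44_P899127. The exon or untranslated region that each probe covers was not looked up, since no annotation of that build was used here.

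RefSeq promoters (assembly GRCr8, 250 bases before to 50 bases after the start of the gene) were found for 3 of the 4 genes. The promoter set used here held none for Sox18. Capitals mark matches on either strand to any of 8 motifs: TATAAA (core promoter element), TGACG (half-site of the cAMP response element), TGANTCA (AP-1), GTAAANA (forkhead), CACCC (KLF), GGGCGG (GC box), ATTGTT (SOX) and the CArG box bound by serum response factor.
Apold1, chr4:169552349-169552648, plus strand: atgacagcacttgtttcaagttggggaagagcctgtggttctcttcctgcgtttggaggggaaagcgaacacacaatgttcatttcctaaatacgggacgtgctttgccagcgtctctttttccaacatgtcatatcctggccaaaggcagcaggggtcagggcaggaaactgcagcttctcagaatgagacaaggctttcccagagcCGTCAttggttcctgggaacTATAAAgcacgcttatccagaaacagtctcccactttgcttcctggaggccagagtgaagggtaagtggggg
Adamts1, chr11:38427335-38427634, minus strand: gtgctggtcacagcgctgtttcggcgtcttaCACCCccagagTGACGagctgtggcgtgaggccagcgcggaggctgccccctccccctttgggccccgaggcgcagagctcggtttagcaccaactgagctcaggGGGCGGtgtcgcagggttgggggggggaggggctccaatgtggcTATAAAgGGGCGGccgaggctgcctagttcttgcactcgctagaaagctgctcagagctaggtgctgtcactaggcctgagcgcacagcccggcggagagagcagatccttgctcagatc
Depp1, chr4:151583121-151583420, plus strand: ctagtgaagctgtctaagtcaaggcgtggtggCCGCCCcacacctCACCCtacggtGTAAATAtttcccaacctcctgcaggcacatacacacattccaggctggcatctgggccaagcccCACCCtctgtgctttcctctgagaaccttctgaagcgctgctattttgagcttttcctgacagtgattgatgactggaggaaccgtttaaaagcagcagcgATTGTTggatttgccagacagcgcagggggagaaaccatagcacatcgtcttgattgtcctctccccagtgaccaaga

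The promoters of Apold1 and Adamts1 each held 1 TATAAA and 1 TGACG match. The TATAAA of Apold1 began at position -22 from the gene start and that of Adamts1 at position -70. TATAAA was present in 14.2% and TGACG in 21.2% of all 33469 promoters of the same length. Depp1 had neither of these but held 1 forkhead match, GTAAATA, at position -194. The forkhead motif was in 13.3% of promoters. KLF matches numbered 2 in Depp1 and 1 in Adamts1, with 54.9% of promoters holding at least 1. The GC box, present in 33.1% of promoters, was found in 2 copies in Adamts1 and 1 in Depp1. Depp1 also had the single ATTGTT among the 3, a motif of 11.7% of promoters. AP-1 (7.33% of promoters) and CArG (1.64%) gave no match in these 3 windows. No motif was shared by all 3 promoters, and no matches overlapped. GC content was 51.0% for Apold1, 65.0% for Adamts1 and 52.7% for Depp1, against a median of 51.7%.

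On the arrays, endothelial RNA was present in every region. Of 12 defining endothelial markers, 9 were well above background in saline RNA on all 24 arrays. Cdh5 and Flt1 were so on 23 arrays and Pecam1 on 10. These are bulk tissues, so fewer cells of a type and less RNA per cell cannot be told apart, and the cell type in which the 4 genes were transcribed was not measured. Between 56.8% and 89.7% of spots were well above background in a channel. The probes of Apold1, Sox18 and Depp1 were well above background in both RNAs on all 24 arrays. Adamts1 was dimmer: its MK-801 RNA was above background on 11 of 12 high-dose and 9 of 12 low-dose arrays, and its saline RNA on 8 and 9 of them. Each probe had 1 spot per array, and none of these spots was saturated or marked as an outlier. Each region had its own slide, so that a slide effect cannot be told apart from a region effect, and scanning took 3 days with 2 regions a day.

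Apold1 gave the strongest ratio of the 4. Its log2 ratio of high-dose over saline RNA was 3.29 and 2.88 on the 2 arrays of the cortex, 2.52 and 2.16 in the amygdala, and 2.28 and 2.08 in the ventral striatum. It was 2.36 and 1.57 in the hippocampus, 1.44 and 0.94 in the hypothalamus, and 1.15 and 0.53 in the midbrain. All 12 arrays were thus positive, and the cortex arrays lay above all others. As a fold, the region means ran from 8.48 in the cortex to 1.79 in the midbrain. The mean over regions was 1.93 ± 0.81 (SD, n = 6 regions).

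Low-dose log2 ratios of Apold1 were 2.72 and 2.34 in the cortex, 1.28 and 0.92 in the ventral striatum, and 1.19 and 0.73 in the amygdala. The hippocampus gave 0.96 and 0.45, the hypothalamus 0.54 and 0.14, and the midbrain 0.63 and -0.030. The cortex stood apart: its mean was 5.77-fold over saline, against 1.23-fold to 2.15-fold in the other regions. The mean of 6 regions was 0.99 ± 0.82 (SD) and became 0.68 without the cortex. In every one of the 12 dye-swap pairs the array with MK-801 RNA in Cy5 gave the larger ratio, by 0.21 to 0.79. The cortex was the highest region in either dye.

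High-dose ratios of Apold1 exceeded low-dose ratios in all 6 regions. The difference was 1.37 in the amygdala, 1.26 in the hippocampus, 1.08 in the ventral striatum, 0.85 in the hypothalamus, 0.56 in the cortex and 0.54 in the midbrain. In the cortex the low-dose log2 ratio already came to 81.9% of the high-dose one. Elsewhere the same share was 28.4% to 50.6%. The region with the highest ratios thus had the smallest step relative to its height.

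Among the 23746 genes tested at the high dose, 1 had a higher mean log2 ratio than Apold1. That gene was Ccn1, a secreted matrix protein of endothelial and other cells, at 2.68. Apold1 was exceeded by 5 of 24379 genes at the low dose. The spread of Apold1 over regions at the low dose, 0.82, was exceeded by 4 genes, and the median gene had an SD of 0.073.

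**Figure D1:**
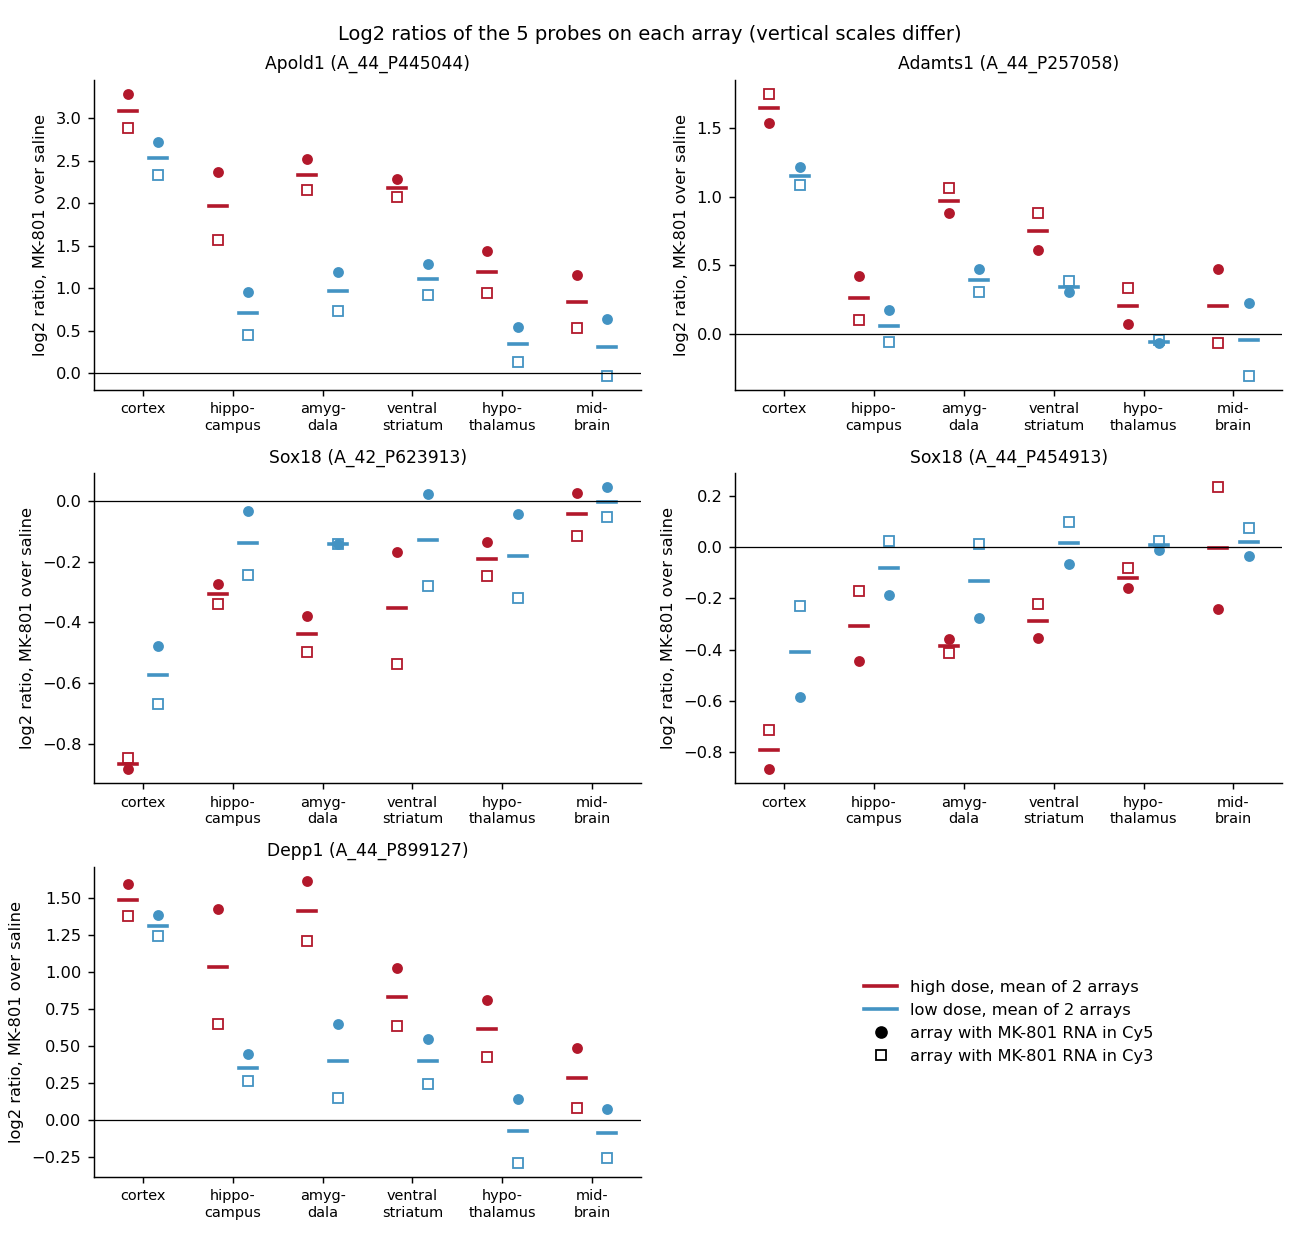
Log2 ratio of MK-801 over saline RNA (vertical axis) in 6 regions for each probe, at the high dose (red, left) and low dose (blue, right); filled circles are arrays with MK-801 RNA in Cy5, open squares arrays with it in Cy3, and bars the mean of the 2. The cortex holds the most extreme mean of every probe at both doses, above 0 for Apold1, Adamts1 and Depp1 and below 0 for both Sox18 probes.

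Depp1 ran close to Apold1. Its high-dose log2 ratios were 1.60 and 1.38 in the cortex, 1.62 and 1.21 in the amygdala, and 1.43 and 0.65 in the hippocampus. The ventral striatum gave 1.03 and 0.64, the hypothalamus 0.81 and 0.42, and the midbrain 0.49 and 0.076. All 12 high-dose arrays were positive, and cortex and amygdala overlapped at the top. The mean was 0.95 ± 0.47 (SD, n = 6 regions).

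Depp1 at the low dose was highest in the cortex, at 1.39 and 1.24. The amygdala gave 0.65 and 0.15, the ventral striatum 0.55 and 0.24, and the hippocampus 0.44 and 0.26. In the hypothalamus (0.14 and -0.29) and the midbrain (0.074 and -0.26) the 2 arrays differed in sign. As for Apold1, the array with MK-801 RNA in Cy5 gave the larger Depp1 ratio in 6 of 6 regions at each dose. The gap was 0.22 to 0.78 at the high dose and 0.14 to 0.50 at the low dose. The cortex mean was 2.49-fold over saline and the other means lay between 0.938-fold and 1.32-fold. The mean over regions, 0.38 ± 0.51 (SD), became 0.20 without the cortex. High minus low was positive in all 6 regions, from 0.18 in the cortex to 1.02 in the amygdala, with a mean of 0.56 ± 0.30. In the cortex the low-dose ratio was 88.2% of the high-dose ratio.

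Adamts1 showed the same region at the top with smaller ratios. High-dose over saline gave 1.54 and 1.75 in the cortex, 0.88 and 1.06 in the amygdala, and 0.61 and 0.88 in the ventral striatum. The hippocampus gave 0.42 and 0.098, the hypothalamus 0.070 and 0.33, and the midbrain 0.47 and -0.067. These regions did not overlap with the cortex, and the last 3 held ratios near 0. As a fold, the cortex was at 3.12, the amygdala at 1.96 and the ventral striatum at 1.68. In the amygdala, ventral striatum and hypothalamus the saline RNA was above background on 1 of 2 arrays, and on the hippocampus array that gave 0.42 neither RNA was. These ratios and folds therefore depend on the offset added to dim signals. The mean over regions was 0.67 ± 0.57 (SD, n = 6) and became 0.48 without the cortex.

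Adamts1 at the low dose gave 1.22 and 1.09 in the cortex, 0.48 and 0.31 in the amygdala, and 0.31 and 0.38 in the ventral striatum. It gave 0.18 and -0.062 in the hippocampus and 0.22 and -0.30 in the midbrain. Neither RNA was well above background on the hippocampus array that gave 0.18. In the hypothalamus neither RNA was well above background on either array, so no fold is given there. The cortex was 2.22-fold over saline and stood apart from the other regions. The mean of 0.31 ± 0.46 (SD), which includes the hypothalamus, became 0.14 without the cortex. The high-dose ratio exceeded the low-dose ratio by 0.20 to 0.58, and the mean difference was 0.36 ± 0.15. Using the signals processed by the scanner software, to which no offset is added, Adamts1 averaged 1.27 (high dose) and 0.51 (low dose).

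Sox18 ran the other way. Probe A_42_P623913 gave high-dose over saline log2 ratios of -0.88 and -0.85 in the cortex, -0.38 and -0.50 in the amygdala, and -0.17 and -0.54 in the ventral striatum. It gave -0.27 and -0.34 in the hippocampus, -0.13 and -0.25 in the hypothalamus, and 0.025 and -0.12 in the midbrain. The second probe, A_44_P454913, gave -0.87 and -0.71 in the cortex, -0.36 and -0.41 in the amygdala, and -0.35 and -0.22 in the ventral striatum. Both probes thus placed the cortex lowest, at 0.549-fold and 0.578-fold of saline, and the midbrain nearest to 0. The second probe gave -0.45 and -0.17 in the hippocampus, -0.16 and -0.081 in the hypothalamus, and -0.24 and 0.23 in the midbrain. The means over regions were -0.37 ± 0.28 for the first probe and -0.32 ± 0.27 for the second (SD, n = 6).

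In low-dose RNA the first Sox18 probe gave -0.48 and -0.67 in the cortex. In the other regions its arrays lay between -0.32 and 0.044. The second probe gave -0.58 and -0.23 in the cortex and between -0.28 and 0.097 elsewhere. The cortex was the single region in which all 4 low-dose values, 2 per probe, lay below 0. The means were -0.20 ± 0.19 and -0.098 ± 0.16 (SD, n = 6), and without the cortex they were -0.12 and -0.035. High-dose minus low-dose ratios were negative in all 6 regions for both probes, with means of -0.17 ± 0.12 and -0.22 ± 0.13.

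The probes of Sox18 differed in their response to the dyes. With MK-801 RNA in Cy5 the first probe gave the higher ratio in 5 of 6 regions at the high dose, and the second in 1 of 6. At the low dose the second probe averaged -0.20 with MK-801 RNA in Cy5 and 0.00 with it in Cy3. The pair means of the 2 probes correlated at r = 0.97 over the 12 region-by-dose values.

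**Figure D2:**
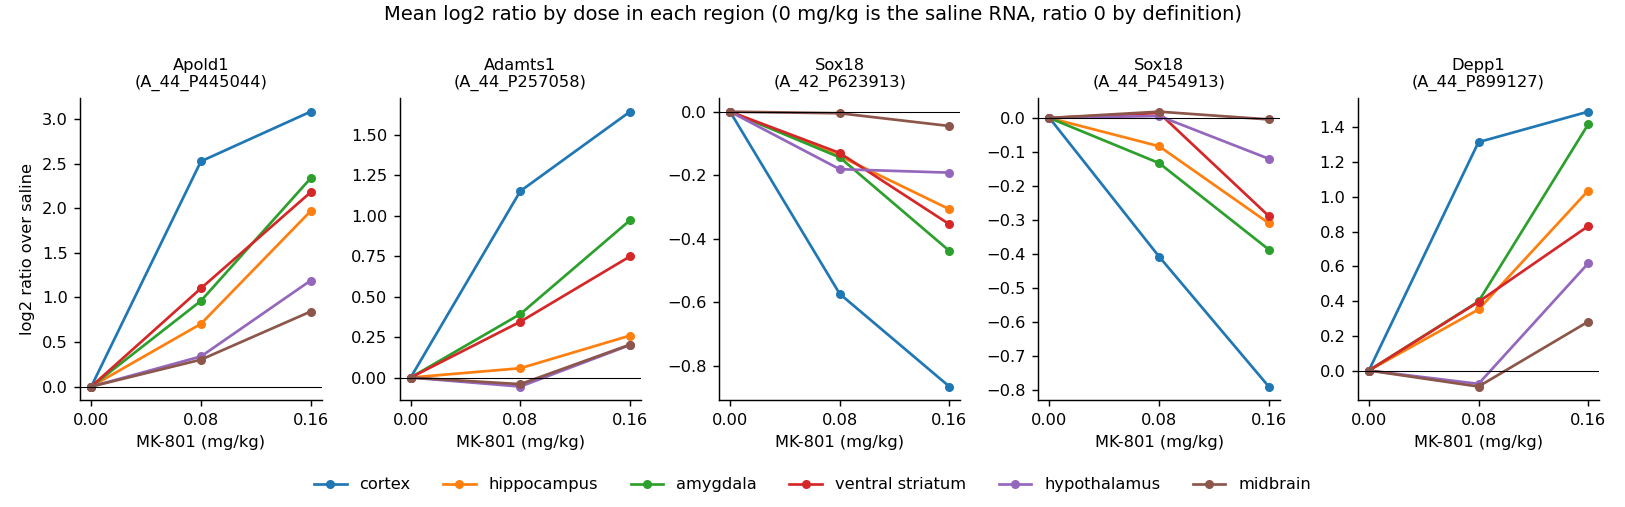
Mean log2 ratio over saline (vertical axis, 2 arrays a point) against MK-801 dose in mg/kg, with 1 line per region and the saline RNA at 0 by definition. In the cortex most of the high-dose ratio of Apold1 and Depp1 was already present at the low dose (81.9% and 88.2%), against 28.4% to 50.6% for Apold1 in the other regions; the low-dose point of Adamts1 in the hypothalamus was below background.

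How often the cortex was the most extreme region was counted over all genes tested at both doses, most of which passed no threshold. The cortex held the largest absolute log2 ratio of 13.9% of 23112 genes at the high dose, of 10.8% at the low dose and of 1.89% at both. All 5 probes had the cortex first at both doses. They were selected on these same ratios and share the same cortex arrays, so these shares are a description and not a test. Over genes, the SD of log2 ratios in the cortex was 0.108 at the high dose, within the range of 0.104 to 0.115 over the 6 regions. It was 0.106 at the low dose, within a range of 0.0908 to 0.124.

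By scan day, the high-dose means of Apold1 were 2.63 for the cortex and ventral striatum, 1.59 for the midbrain and amygdala, and 1.58 for the hippocampus and hypothalamus. Those of Depp1 were 1.16, 0.85 and 0.83, those of Adamts1 1.20, 0.59 and 0.23, and those of Sox18 -0.61, -0.24 and -0.25 with the first probe. At the low dose the same days gave 1.81, 0.63 and 0.52 for Apold1. They were 0.748, 0.176 and 9e-04 for Adamts1, 0.855, 0.153 and 0.137 for Depp1, and -0.197, -0.057 and -0.039 for the second Sox18 probe. These day means had the sign of the mean over regions and were largest on the day that included the cortex. Adamts1 on day 3 was close to 0, and single regions within a day could differ in sign from the day mean.

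Across the 12 region-by-dose means, Apold1 correlated with Depp1 at r = 0.97, with Adamts1 at 0.93, and with the Sox18 probes at -0.92 and -0.93. Without the cortex the same 10-value correlations were 0.96, 0.88, -0.90 and -0.93. Adamts1 correlated with Depp1 at 0.88 and with the Sox18 probes at -0.94 and -0.92, and without the cortex at 0.84, -0.79 and -0.79. The 12 values share arrays, slides and, between doses, saline RNA, and the correlations describe them without a test.

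**Figure D3:**
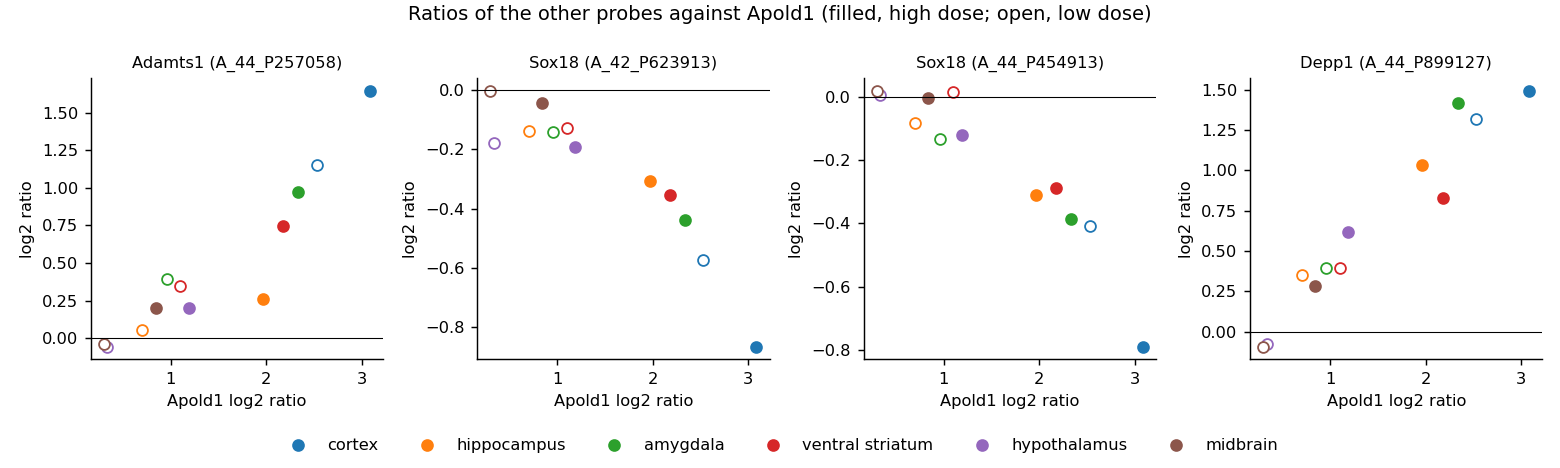
Mean log2 ratio of each other probe (vertical axis) against that of Apold1 (horizontal axis) in 6 regions, filled for the high dose and open for the low dose. Adamts1 and Depp1 run upward with Apold1 (r = 0.93 and 0.97) and both Sox18 probes run downward (r = -0.92 and -0.93), with the cortex at the end of each cloud.

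The genes most like each member over the same 12 means were ranked among 23108 others. For Apold1 they were Atf3 (r = 0.99), a stress-induced transcription factor, Klf4 (0.99) and Klf2 (0.98), Krüppel-like factors induced by flow in endothelium, the unnamed transcript XM_213050 (0.96) and Bcl6b (0.96), a transcriptional repressor. Without the cortex these 5 were still the first 5, at 0.94 to 0.99. Atf3 averaged 1.46 (high dose) and 0.28 (low dose). For Depp1 the list was Klf4 (0.95), Atf3 (0.95), Dusp1 (0.94), a phosphatase of MAP kinases, Bcl6b (0.93) and Klf2 (0.93). Without the cortex Dusp1 was first (0.96), and the other 4 stood at places 3 to 8 (0.90 to 0.93).

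For Adamts1 the most similar genes were Ccl2 (0.99), a monocyte chemokine, Cebpd (0.98), Bambi (0.97), Edn1 (0.93), the endothelin-1 precursor, and Hspa1a (0.92), an inducible heat shock protein. The first 3 of these kept their places without the cortex, while Edn1 stood at place 37 and Hspa1a at place 75. No gene reached 0.9 with either Sox18 probe, and the highest were Apol3l1 with the first (0.89) and the unnamed transcript BF550234 with the second (0.89). Without the cortex those 2 values were 0.71 and 0.61. The lowest correlations were clearer: -0.96 of the first Sox18 probe with Ccl2 and -0.97 of the second with Hspa1a. Without the cortex the 5 most similar genes of the first Sox18 probe stood at 0.58 to 0.85 and those of the second at 0.59 to 0.83.

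Saline RNA alone gave the level of each probe by region, in log2 normalised intensity over 4 arrays. The 4 arrays are dye swaps of the comparisons with both doses, and whether they held different saline RNA is not stated. Their SD is therefore a spread between arrays and cannot be read as the spread between rats. Depp1 was highest in the ventral striatum, at 10.46 ± 0.28 (SD, n = 4 arrays), and next in the cortex, at 9.39 ± 0.27. The gap of 1.07 was larger than either SD between arrays, and no array of the ventral striatum overlapped with one of another region. The amygdala followed at 9.13 ± 0.32, not separated from the cortex by more than its spread. Hippocampus (8.71 ± 0.65), hypothalamus (8.66 ± 0.22) and midbrain (8.65 ± 0.15) differed by less than their SDs.

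Apold1 in saline RNA was between 10.10 and 10.41 in 5 regions, in the order ventral striatum, cortex, amygdala, midbrain and hypothalamus, whose neighbours lay within each other's SD. The hippocampus was lowest, at 9.59 ± 0.63, 0.51 below the hypothalamus (10.10 ± 0.44). The cortex, where the ratios were highest, was at 10.35 ± 0.34 and so was not set apart in saline RNA. Adamts1 ranged from 7.37 ± 0.087 in the amygdala to 6.66 ± 0.48 in the hippocampus. Neighbours in that order were within the larger of their SDs. In the hypothalamus its saline RNA was above background on 1 of 4 arrays.

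Sox18 was even across saline regions by its first probe, with the midbrain highest at 10.84 ± 0.13 and the cortex lowest at 10.64 ± 0.11. The second probe ranged more widely, with the midbrain at 10.35 ± 0.19 and the hippocampus lowest at 9.62 ± 0.41. With it the hypothalamus (9.81 ± 0.13) lay 0.35 below the cortex, more than either SD. Both ranked the midbrain first and the amygdala second, and no neighbours differed by more than their spread with the first probe. For these levels too, the slide cannot be told apart from the region.

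**Figure D4:**
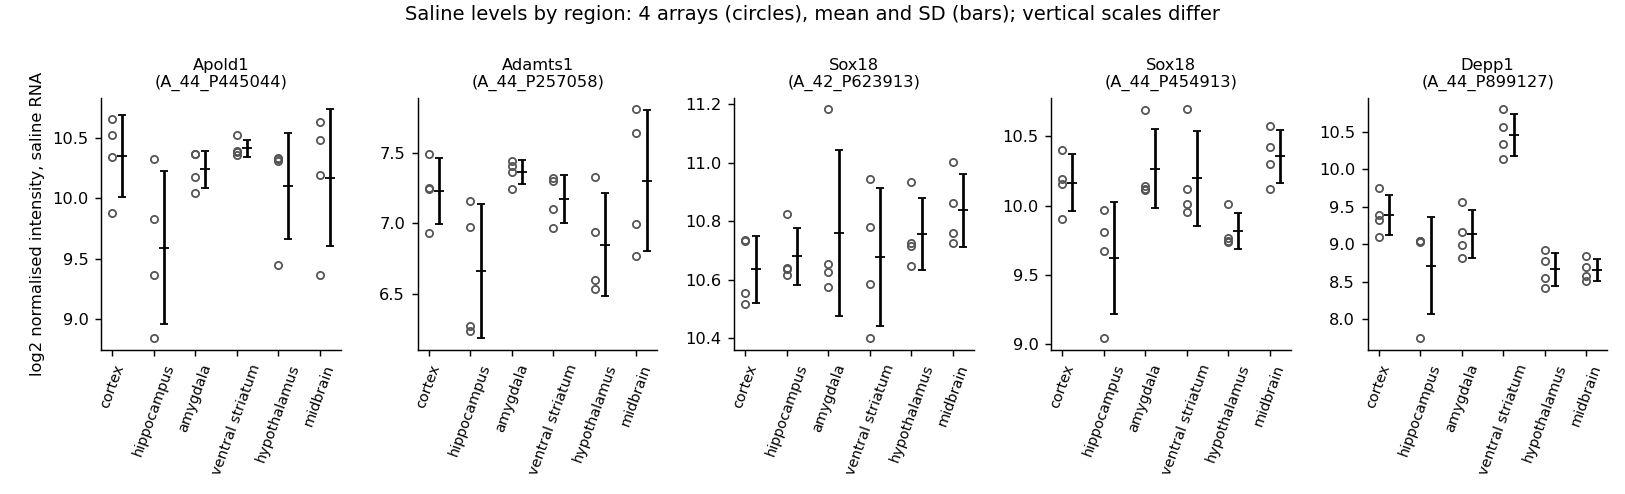
Log2 normalised intensity of saline RNA (vertical axis) by region for each probe; circles are the 4 arrays, and bars the mean ± SD. Depp1 stands out in the ventral striatum, where its 4 arrays lie above those of all other regions, while Apold1 and the first Sox18 probe differ little between most regions.

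The other genes of these pathways were tested over the 6 regions in a fit across all genes. Their lists were chosen with earlier results of these data known, so counts within a list are not an independent test. The regions were dissected from the same 9 rats, so they are not independent samples, and the p-values below are too small as statements about animals. At the high dose 2.00% of 23746 genes passed the adjusted p threshold of 0.05, 1.05% as higher and 0.948% as lower. At the low dose 2.38% of 24379 genes passed, 1.19% in each direction. Between the doses 1.45% of 23370 genes passed, 0.847% with the higher ratio at the high dose and 0.599% with the lower. The median log2 ratio of all genes tested was within 0.01 of 0 in each comparison. With median centring in place of loess 31 genes passed between the doses, 14 with the higher and 17 with the lower ratio at the high dose, against 198 and 140 with loess. Of the 36 calls of the list genes named below, 22 missed the threshold with median centring and 15 with the scanner software's signals, all with the same sign.

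Among relatives of Adamts1, none of 9 tested ADAMTS proteases passed at either dose, nor any of 8 between the doses. Their median log2 ratios were 0.012 (high dose) and -0.020 (low dose). Adamts4, an aggrecanase, averaged 0.054 at the high dose (adjusted p = 0.688) and 0.018 at the low dose (adjusted p = 0.928). Adamts9 averaged -0.024 (adjusted p = 0.812) and -0.033 (adjusted p = 0.789). Of 11 substrates and inhibitors, none passed at the high dose and 1 passed at the low dose. Hapln1, a link protein of the perineuronal matrix, was that gene: it rose by 0.17 (adjusted p = 0.0247), and its adjusted p was up to 0.093 when 1 region was left out. It missed the threshold without the cortex, hippocampus, amygdala, ventral striatum or midbrain. Timp3, an inhibitor of metalloproteases, averaged 0.026 and 0.016 (adjusted p = 0.839 and 0.887).

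Of 11 tested SOX factors other than Sox18, Sox9 was the one that passed. It is a factor of astrocytes, and it fell by 0.34 at the high dose (adjusted p = 0.00031) and by 0.27 at the low dose (adjusted p = 0.00181), in 6 of 6 regions each. With median centring the adjusted p was 0.0264 at the high dose, while the low-dose mean was -0.14 (adjusted p = 0.585). Sox17, the SOXF relative of Sox18, averaged -0.065 (adjusted p = 0.416) and 0.014 (adjusted p = 0.904). Sox7 was not tested here. None of 13 Notch and SOXF-linked vascular genes passed in any comparison, and their medians were 0.0094 (high dose) and -0.024 (low dose).

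Depp1 is a FOXO target, and 22 FOXO factors and targets were tested. None passed at the high dose and 3 rose at the low dose, of which 1 passed without the cortex. They were Sesn1 (0.16, adjusted p = 0.00959), Bcl6 (0.16, adjusted p = 0.0497) and Klf15 (0.15, adjusted p = 0.0306), each in 6 of 6 regions after averaging dye-swap pairs. The dye orientations differed in sign for Bcl6, at 0.48 with MK-801 RNA in Cy5 alone and -0.16 in Cy3 alone. For Sesn1 these means were -0.0088 and 0.33. Sesn1 remained past the threshold without any 1 region, at an adjusted p of up to 0.0415, but missed it with median centring (0.146). Bcl6 missed it without any of the 6 (up to 0.145), and Klf15 without the cortex, ventral striatum, hypothalamus or midbrain (up to 0.124). Foxo1 averaged -0.0059 at the high dose (adjusted p = 0.965) and Foxo3 0.034 (adjusted p = 0.697). Txnip, a thioredoxin inhibitor, averaged 0.19 at the high dose (adjusted p = 0.0683) and 0.022 at the low dose (adjusted p = 0.856).

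Of 15 flow-responsive and KLF-regulated endothelial genes tested, 5 rose at the high dose, 1 at the low dose, and 5 had the higher ratio at the high dose; none was lower. The list's median was 0.16 at the high dose, 0.071 at the low dose and 0.14 between the doses. Without the cortex the counts were 4, 1 and 4. Ccn1 averaged 2.68 ± 0.38 (SE) at the high dose (adjusted p = 0.00337), with region values from 4.16 in the cortex to 0.65 in the midbrain, and 1.53 at the low dose (adjusted p = 0.0587). Klf4 averaged 1.12 ± 0.13 at the high dose (adjusted p = 0.000868) and 0.47 at the low dose (adjusted p = 0.0996). Klf2 rose by 0.83 ± 0.091 at the high dose (adjusted p = 0.000543) and by 0.46 ± 0.082 at the low dose (adjusted p = 0.0119), where the adjusted p was 0.0561 without the ventral striatum.

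Between the doses Klf4 differed by 0.64 (adjusted p = 9.99e-06), Klf2 by 0.37 (adjusted p = 0.000587) and Ccn1 by 1.14 (adjusted p = 0.000759), with the high dose above in 6 of 6 regions each. Ccn2, a matrix protein related to Ccn1, rose by 0.43 at the high dose (adjusted p = 0.000434) and differed by 0.35 between the doses (adjusted p = 0.00166). Klf6, named after its values were seen to complete the count, rose by 0.21 at the high dose (adjusted p = 0.0458, up to 0.152 without the cortex, hippocampus, amygdala, ventral striatum or hypothalamus). Ccl2 differed by 0.36 between the doses (adjusted p = 0.0289), with an adjusted p of up to 0.103 when the cortex, hippocampus, amygdala or ventral striatum was left out. Klf4 in the cortex stood at 1.79 (high dose) and 1.29 (low dose), and Klf2 at 1.31 and 0.99. As with Apold1, the cortex was the highest region for both genes at both doses. With median centring the high-dose calls of Ccn1, Klf4 and Klf2 stayed past the threshold (adjusted p = 0.0349, 0.0349 and 0.0266). The call of Klf2 at the low dose was lost (0.0979), as was that between the doses (0.202). Ccn2 (0.0584) and Klf6 (0.805) missed the threshold at the high dose, and Ccn2 (0.181) and Ccl2 (0.215) missed it between the doses, while Klf4 and Ccn1 passed there (0.0388 and 0.0215).

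Of 22 VEGF and hypoxia genes, 2 rose and 1 fell at the high dose, and 1 rose and 1 fell at the low dose. Without the cortex 1 passed at each dose. Nr4a1, an orphan nuclear receptor induced by VEGF in endothelium and by activity in neurons, rose by 0.67 at the high dose (adjusted p = 0.000675) and differed by 0.59 between the doses (adjusted p = 0.00017). With median centring these adjusted p-values were 0.327 and 0.663. Kdr, the main VEGF receptor of endothelium, fell by 0.18 at the high dose (adjusted p = 0.0169) and by 0.30 at the low dose (adjusted p = 0.00404). At the high dose it missed the threshold without the cortex, hippocampus or ventral striatum (up to 0.0774) and with median centring (0.674). The low-dose call of Kdr stayed past the threshold with median centring (0.0451). Vegfa averaged -0.063 (adjusted p = 0.427) and -0.10 (adjusted p = 0.0994). Slc2a1, which carries glucose across the blood-brain barrier, rose by 0.13 and 0.12 (adjusted p = 0.0341 and 0.021), with an adjusted p of up to 0.124 and 0.0806 when 1 region was left out. It missed the threshold without the cortex, hippocampus, hypothalamus or midbrain at each dose, and also without the ventral striatum at the high dose. Both calls of Slc2a1 were also lost with median centring (adjusted p = 0.853 and 0.0879).

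**Figure D5:**
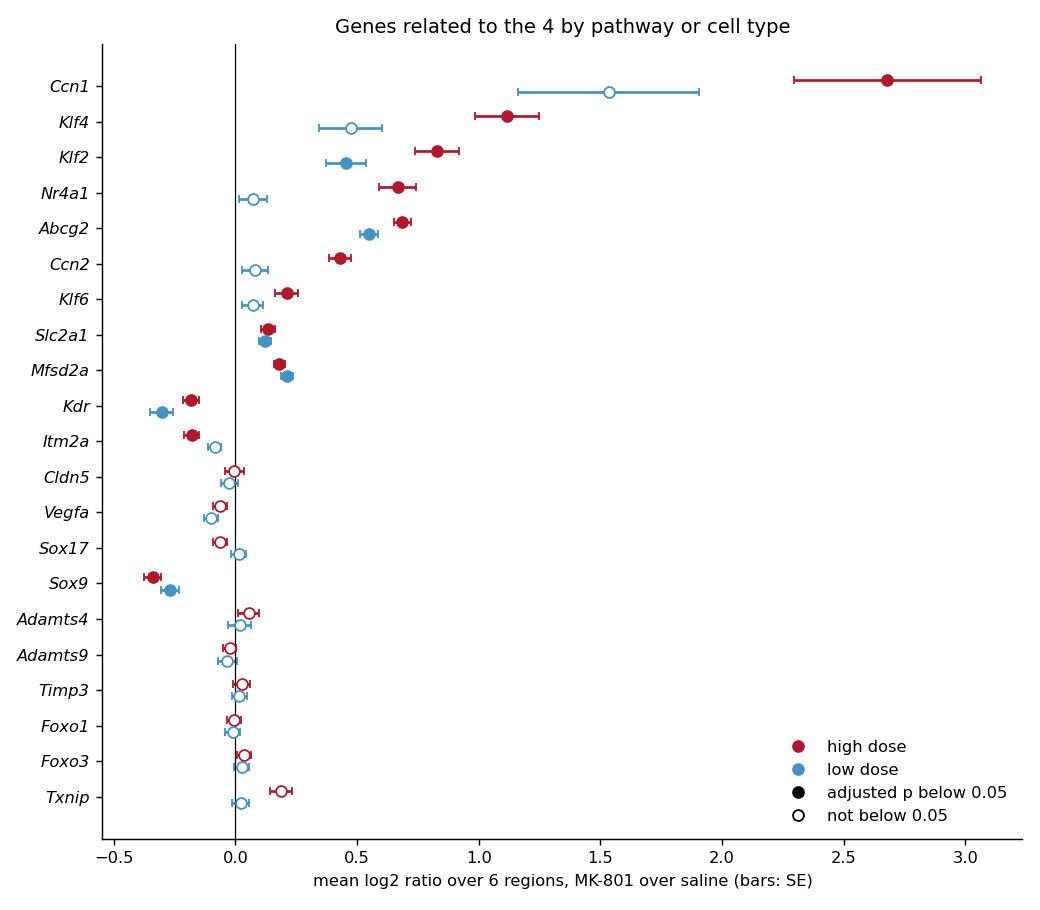
Mean log2 ratio of MK-801 over saline RNA over 6 regions (horizontal axis, bars are the SE) for genes related to the 4 by pathway or cell type, at the high dose (red, above) and low dose (blue, below); filled points passed the adjusted p threshold of 0.05. At the high dose Ccn1, Klf4 and Klf2 lie farthest to the right. At the low dose Abcg2 lies to the right of Klf4 and Klf2. Cldn5, Sox17, Adamts4, Adamts9, Foxo1 and Foxo3 lie near 0.

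Endothelial markers as a whole were spread around 0. At the high dose 3 of 27 were higher and 2 lower, and at the low dose 3 of 26 were higher and 1 lower. Without the cortex 3 passed at each dose. None of 26 differed between the doses, and the medians were -0.036, -0.016 and 0.0071. Abcg2, an efflux transporter of the barrier, rose by 0.69 at the high dose (adjusted p = 4.99e-06) and by 0.55 at the low dose (adjusted p = 7.69e-06). Mfsd2a, a lipid transporter of the barrier, rose by 0.18 and 0.21 (adjusted p = 0.00179 and 0.000555). Itm2a fell by 0.18 at the high dose (adjusted p = 0.0097). With median centring Mfsd2a (adjusted p = 0.773), Itm2a (0.507), Kdr (0.674) and Slc2a1 (0.853) missed the threshold at the high dose. At the low dose Slc2a1 missed it too (0.0879). Mfsd2a (0.0184) and Kdr (0.0451) at the low dose and Abcg2 at both doses (0.00345 and 0.000804) still passed. Cldn5, the tight junction claudin of endothelium, averaged -0.0051 (high dose) and -0.026 (low dose; adjusted p = 0.98 and 0.824). In the cortex, where the 4 genes were most extreme, the median endothelial marker was at -0.045 (high dose) and -0.057 (low dose). The summed level of the 28 markers on the array was 52970 to 94710 in high-dose RNA, against 55950 to 104200 in saline RNA of the same arrays.

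Markers of other cell types were counted in the same way. Blood cell markers (9 tested) were higher for 5 at the high dose and lower for 4 at the low dose, and 7 had the higher ratio at the high dose. Their medians were 0.19, -0.12 and 0.39, and in the cortex 0.38, -0.11 and 0.52. Hbb, a beta globin, averaged 0.33 at the high dose (adjusted p = 0.0263, up to 0.106 without the cortex, hippocampus, amygdala or midbrain) and -0.54 at the low dose (adjusted p = 0.00511). The summed level of the blood markers was 65940 to 216500 in high-dose RNA, against 53410 to 209400 in its saline RNA. It was 54330 to 141300 in low-dose RNA, against 73340 to 216600 in its saline RNA. The part of blood in the ratios of the 4 genes, and in their difference between the doses, was not tested.

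Meningeal markers (12 tested) gave no call at the high dose and 1 lower at the low dose. Their cortex median was 0.0033 (high dose) and -0.94 (low dose). That call was Slc6a13, which fell by 0.31 (adjusted p = 0.0227), with an adjusted p of up to 0.0905 without the hippocampus or midbrain. The 12 pericyte and smooth muscle markers and the 8 choroid plexus markers tested gave no call in any comparison. Choroid plexus medians ranged from -0.46 to 0.92 over regions at the high dose, with the amygdala highest. The part of these cells in the ratios of the 4 genes was not tested.

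Astrocyte markers (10 tested) gave 1 lower gene at the high dose, Sox9, and at the low dose 1 higher and 1 lower. Microglial markers rose for 5 of 12 at the low dose and for none at the high dose, with 2 lower between the doses. Oligodendrocyte markers rose for 1 of 10 at the high dose and 2 of 10 at the low dose. Of 12 activity-regulated neuronal genes, 1 rose and 1 fell at the high dose, and 5 fell at the low dose. Egr1, an activity marker of neurons, averaged -0.087 at the high dose (adjusted p = 0.47). At the low dose it fell by 0.26 (adjusted p = 0.00647, or 0.0702 with median centring).

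Glucocorticoid-responsive genes rose for 9 of 13 at the high dose and 8 of 13 at the low dose, with medians of 0.19 and 0.16. Without the cortex the counts were 5 and 6. Sgk1, a kinase induced by glucocorticoids, rose by 0.61 and 0.45 (adjusted p = 0.000103 and 3.15e-05, or 0.398 and 0.00251 with median centring), and 1 of 13 differed between the doses. In the cortex, where the 4 genes were most extreme, the list's median was 0.28 (high dose) and 0.076 (low dose). Of the apolipoprotein L genes listed as relatives of Apold1, 1 of 12 was found on the array by name and none was tested.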

How the data were processed

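Two-colour Agilent arrays were read from the deposited scanner files, whose intensity columns hold mean spot signals and local backgrounds per dye, made with Feature Extraction 9.5.3.1 per the file headers. Probe coordinates there refer to rn3. The deposited value table holds log10 ratios of the scanner's processed signals, turned to MK-801 over saline; all its values lay within 0.01 of that ratio. Here the intensities were corrected with normexp (offset 50) and loess-normalised within arrays in limma 3.58.1 (R 4.3.3). Control spots had no weight in the loess fit. Outlier spots were removed after the fit, before the spots of a probe were averaged. Levels of 1 dye were Aquantile-normalised. Log2 ratios computed here from the deposited intensities were averaged over each dye-swap pair.

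A gene was represented by its brightest probe and tested at a dose where MK-801 or saline RNA was well above background on both arrays in at least 3 of 6 regions. Of 41012 probes, 20905 kept the file's name. limma's moderated test set the mean of 6 region values against 0, Benjamini-Hochberg adjusted over all genes. The saline RNA's own spread is left out, and p-values measure spread between regions only. The regions come from the same rats, so these p-values are too small for a comparison of animals. Array number and signal over background limit the precision.

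The 4 genes and the gene lists were chosen with earlier results of these data known. Named list genes were taken from up to 4 per list and comparison with the largest ratio among those called with 1 sign in 6 regions, plus 13 fixed ones; for each member, the 5 most correlated genes. Counts in lists without the cortex were added after seeing the data. The fit was tested on simulated data. Alternatives changed the offset, normalisation, value source, outlier spots, dye, region, scan day, dim-probe filter and probe choice.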

Additional observations from a re-analysis of the deposited data

Results flagged for a closer look

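At the low dose the cortex lay far from the other 5 regions for every probe, by the gap to its nearest neighbour relative to the whole range. Its mean log2 ratio of MK-801 over saline was 2.53 for Apold1, 1.15 for Adamts1, 1.31 for Depp1, -0.57 for the first Sox18 probe (A_42_P623913) and -0.41 for the second (A_44_P454913). The genes were selected on these ratios, so this placing of the cortex is a description and not a test. The 5 probes share the same 2 cortex arrays and so are not independent. At the high dose and between the doses no region was set apart in this way.

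In saline RNA 6 of 30 sets of 4 arrays held 1 array far from the others. These were Apold1 in the hypothalamus (9.45), the first Sox18 probe in the hippocampus (10.83) and amygdala (11.18), the second Sox18 probe in the amygdala (10.69) and hypothalamus (10.01), and Depp1 in the hippocampus (7.74), all in log2 normalised intensity. Chance marks about 1 in 20 such sets.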

How the results depend on the processing

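The number of genes past the threshold changed with the normalisation, the source of the values and the arrays used. At the high dose 474 genes passed after normexp and loess, 266 on the signals processed by the scanner software, 279 on the deposited value table and 63 after median centring. At the low dose 580 passed, against 302, 301 and 208 in that order, and between the doses 338, against 198, 210 and 31. Leaving out the arrays of 1 dye orientation or 1 region gave 283 to 7596 genes at the high dose, 370 to 8431 at the low dose and 146 to 299 between the doses. The highest counts came from arrays of 1 dye orientation alone, in which a dye effect does not cancel. Without the cortex 283 genes (high dose) and 370 genes (low dose) passed, without the ventral striatum 300 and 377, and without the amygdala 291 at the high dose. Within scan day 1, 2 and 3, each with 2 regions, the counts were 289, 131 and 86 for the high dose, 113, 41 and 175 for the low dose, and 111, 65 and 48 between the doses. The processed signals and the deposited table differ in background correction as well as normalisation, and other causes of these shifts were not tested.

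The means of the 5 probes kept their direction in every setting except the second Sox18 probe at the low dose, which stood at 1.728e-05 with MK-801 RNA in Cy3 alone. Adamts1 moved beyond its spread over regions, to a high-dose mean of 1.27 and a dose difference of 0.75 with the processed signals, and to 1.27 and 0.76 with the deposited table. Apold1 at the low dose was 1.81 within scan day 1. Among the named list genes, at least 9 means changed sign when 1 dye orientation was left out. These 9 ranged from -0.17 to 0.12 for Adamts9, -0.18 to 0.45 for Bcl6, -0.20 to 0.25 for Cldn5 and -0.16 to 0.15 for Foxo1 at the high dose. At the low dose the ranges were -0.23 to 0.16 for Adamts9, -0.16 to 0.48 for Bcl6, -0.26 to 0.21 for Cldn5, -0.15 to 0.20 for Txnip and -0.0088 to 0.33 for Sesn1. Of 36 calls of named genes, 6 were missed when scan day entered as a block, 13 from the deposited table and 5 to 9 when 1 region was left out.

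Dose differences were taken within regions throughout. No paired analysis was possible by replicate number because these numbers name the dye orientation of an array and each array already holds both RNAs. Dim probes limit Adamts1, and 6 regions limit every test.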
